A study of Mus musculus with 6 samples.

Results

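The genes described are 33 acute inflammatory and cytokine response genes, chosen by name as cytokines, chemokines, acute-phase genes and response genes of NF-kB and STAT3. They are 33 of 46072 genes in the tables, namely 8 cytokines and chemokines, 6 receptors, 4 adhesion molecules, 9 regulators of the STAT3, C/EBP and NF-kB pathways and 6 acute-phase or innate effector genes. The measurements came from RIP-seq, in which RNA is recovered from a lysate along with the protein that an antibody binds. Male mice aged 10 weeks gave left ventricles from a Sham group and from mice given Angiotensin II (AngII) for 4 h or 24 h, with 2 mice per group. AngII was delivered from an osmotic minipump at 1 mg/kg/min, whereas Sham mice were labelled as untreated and received saline by the study's methods. Each lysate was incubated with anti-EZH2, against the histone methyltransferase EZH2, or with normal IgG as the background of the pull-down.

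There were 6 libraries, with 1 for each group and antibody, and 2 RIP products were mixed into each. No library had a replicate, so differences were described by fold and no test was made. The strain was labelled C57BL/6 in the Sham libraries and both AngII IgG libraries, C57BL/7 in the AngII 4 h anti-EZH2 library and C57BL/8 in the AngII 24 h anti-EZH2 library. Among the anti-EZH2 libraries the label followed the group, and within each AngII group it differed between the antibodies. A difference of strain cannot be told apart there from group or antibody. Whether these labels stand for different animals was not tested. Levels are the deposited FPKM, a fragment count relative to transcript length and library size, each library having been normalised on its own. Steps between the low FPKM of genes with 1 transcript gave estimates of 4274561, 5180154 and 3805852 fragments for the Sham, AngII 4 h and AngII 24 h IgG libraries, and of 5689301, 7864546 and 4763258 fragments for the respective anti-EZH2 libraries. Mitochondrial genes held 31.3% of the FPKM in the AngII 24 h anti-EZH2 library, against 6.72% to 13.9% in the other libraries. That library stood apart in this measure, and its part in the differences at 24 h was not tested. Counts of the 33 genes over time that rest on it are also given from the IgG libraries alone.

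Acute inflammatory signalling starts when cytokines such as IL-1 and IL-6 bind their receptors on endothelial, stromal and muscle cells. NF-kB and C/EBP factors and STAT3 then switch on chemokines, adhesion molecules that hold leukocytes to the vessel wall, and acute-phase proteins, together with inhibitors that end the response. In the heart, AngII is known for raising blood pressure and for provoking inflammation, hypertrophy and fibrosis.

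Most of the 33 genes were near the limit of these libraries. Il6, Il1b, Sele and Saa3 were listed at 0 in all 6 libraries, another 14 genes were above 0 but under 1 FPKM wherever they were seen, and 15 genes reached 1 FPKM in at least 1 library. The low-value filter, a mean of at least 1 FPKM over the 6 libraries, was passed by 9 of the 33 genes (Cxcl12, Osmr, Tnfrsf12a, Vcam1, Stat3, Cebpb, Cebpd, Nfkb1 and Nfkbia). Osmr lay just inside it with a mean of 1.30 FPKM and Cxcl16 just outside it with 0.723 FPKM. Summed over the 33 genes, the level was 38.4, 62.6 and 48.5 FPKM in the Sham, AngII 4 h and AngII 24 h IgG libraries, and 30.9, 53.8 and 28.2 FPKM in the anti-EZH2 libraries. Values below are given in this order throughout, IgG libraries first.

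Widely expressed genes were not at 0, with Hprt, the purine salvage enzyme, between 2.17 and 2.98 FPKM in all 6 libraries. Of the genes listed at 0, Il6, the fever cytokine that signals through STAT3, could have been present at up to 0.178 to 0.368 FPKM depending on the library, taking 3 fragments on its longest annotated transcript as the limit. The same limit was 0.331 to 0.683 FPKM for Il1b, the cytokine released by inflammasomes. It was 0.141 to 0.291 FPKM for Sele, the endothelial selectin, and 0.191 to 0.395 FPKM for Saa3, a local acute-phase protein. On their shortest annotated transcripts the limits are higher, at 0.851 to 1.76 FPKM for Il6, 2.13 to 4.41 FPKM for Il1b and 1.31 to 2.71 FPKM for Saa3. These limits and the intervals below cover counting error only.

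Among the cytokines and chemokines, Cxcl12, the stromal chemokine that binds Cxcr4, had the highest level. It was at 4.62, 3.97 and 5.13 FPKM in the IgG libraries and at 2.86, 3.77 and 3.28 FPKM in the anti-EZH2 libraries. It stayed within a narrow range, and its levels at 4 h were 0.860-fold those of Sham with IgG and 1.32-fold with anti-EZH2, where the direction turned (log2 -0.02) once each library was divided by its median ratio, a scaling described with the counts at 4 h. Cxcl16, a membrane-bound chemokine for T cells, was at 0.434, 0.457 and 1.23 FPKM with IgG and at 1.32, 0.706 and 0.196 FPKM with anti-EZH2. It was highest at 24 h with IgG and in Sham with anti-EZH2, so the order of the groups differed between the antibodies. The monocyte chemokines Ccl2 and Ccl7 and the neutrophil chemokines Cxcl1 and Cxcl2 never exceeded 0.586 FPKM. Ccl7 was at 0.386, 0 and 0.438 FPKM with IgG and at 0.586, 0 and 0 FPKM with anti-EZH2. Those levels correspond to 1, 0 and 1 fragments and to 2, 0 and 0 fragments, which cannot order the groups. Ccl2 and Cxcl2 were above 0 in the Sham IgG library alone, at 0.378 and 0.255 FPKM. Cxcl1 was above 0 in the Sham and AngII 4 h IgG libraries, at 0.138 and 0.253 FPKM. No difference in these chemokines was detectable at this depth.

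Tnfrsf12a, the receptor of the cytokine TWEAK, was the most abundant of the receptors. Its level was 3.95, 5.80 and 7.65 FPKM in the IgG libraries and 2.58, 5.92 and 3.51 FPKM in the anti-EZH2 libraries. It was above Sham in all 4 AngII libraries, by 1.47-fold and 2.30-fold at 4 h and by 1.94-fold and 1.36-fold at 24 h, and in these tables it passed 2-fold with both antibodies at neither time. In the table of the whole series, a second deposited form of the FPKM, its levels at 24 h were 4.84 FPKM with IgG and 3.61 FPKM with anti-EZH2, each past 2-fold higher than in Sham. Osmr, the oncostatin M receptor chain, was at 0.846, 1.28 and 1.2 FPKM with IgG and at 1.37, 0.870 and 2.24 FPKM with anti-EZH2. At 24 h it was above Sham with both antibodies, at 1.42-fold and 1.64-fold, and at 4 h its direction differed between them. Il1rl1, the receptor of IL-33, was at 0, 0.188 and 0.0540 FPKM with IgG and at 1.01, 0.0774 and 0 FPKM with anti-EZH2. Only the Sham anti-EZH2 library held it at an appreciable level, with a deposited interval that began at 0. Il1r1, Il6ra and Il4ra, the receptor chains for IL-1, IL-6 and IL-4, were above 0 in all 6 libraries at 0.107 to 0.748 FPKM. Il4ra was at 0.378, 0.350 and 0.107 FPKM with IgG and at 0.574, 0.512 and 0.214 FPKM with anti-EZH2, which made 24 h the lowest group with either antibody. This order rests on few fragments, at most 2.06 with IgG and 5.15 with anti-EZH2 at 24 h, against at most 8.16 and 16.5 in Sham.

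Vcam1, the endothelial adhesion molecule for monocytes and lymphocytes, was the only adhesion gene to pass the filter. It was at 1.06, 0.757 and 3.83 FPKM in the IgG libraries and at 0.643, 1.24 and 0.320 FPKM in the anti-EZH2 libraries. The IgG series was highest at 24 h, 3.6-fold above Sham, while the anti-EZH2 series was lowest there, at 0.498-fold of Sham. The deposited interval at 24 h ran from 1.12 to 6.54 FPKM with IgG and overlapped that of Sham, 0.339 to 2.33 FPKM. Icam1, the ligand of leukocyte integrins, was at 0.296, 0.326 and 0.560 FPKM with IgG and at 0.225, 0.429 and 0 FPKM with anti-EZH2. Selp, the selectin of platelets and endothelium, was above 0 in the AngII 24 h IgG library alone, at 0.243 FPKM. The 8 endothelial markers, all past the filter, summed to 52.3, 35.6 and 38.1 FPKM with IgG and to 36.0, 39.6 and 35.2 FPKM with anti-EZH2. Egfl7, the most abundant, was at 14.6, 10.0 and 5.79 FPKM and at 11.9, 10.1 and 16.0 FPKM, and none of the 8 was at 0. The junction cadherin Cdh5 was at 9.83, 6.08 and 4.71 FPKM and at 7.83, 5.26 and 2.43 FPKM, the only marker of the list past 2-fold in both antibodies, lower at 24 h than in Sham. Of the 8 markers, 0 were above Sham at 4 h and 2 at 24 h with IgG, and 5 at 4 h and 4 at 24 h with anti-EZH2, the same numbers as after the median scaling. The part of these cells in the Vcam1 values was not tested.

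**Figure D1:**
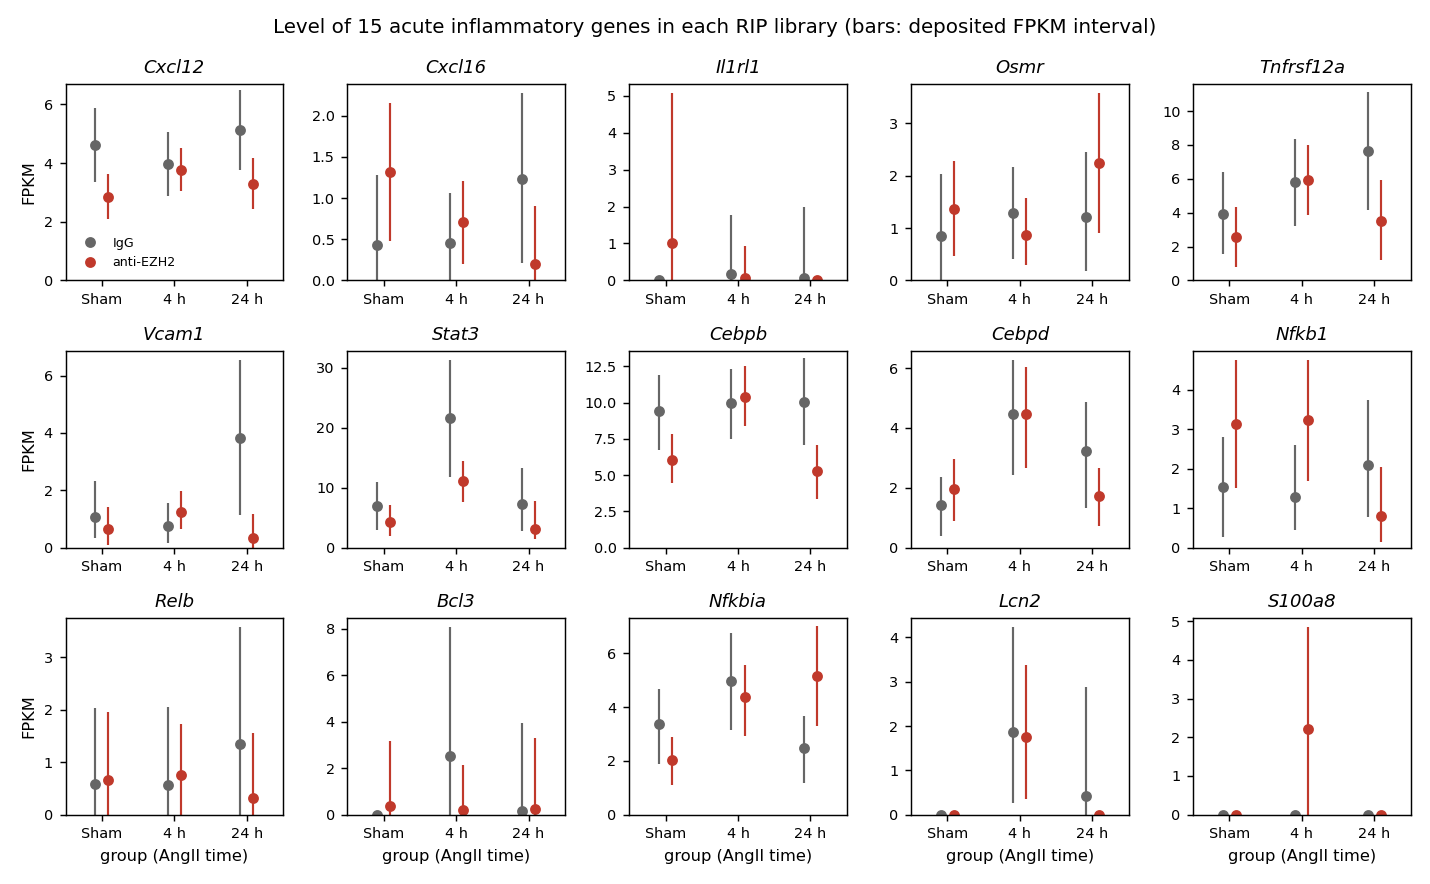
FPKM (y axis, linear from 0) of the 15 genes that reached 1 FPKM in at least 1 library, by group, Sham and AngII for 4 h or 24 h (x axis); grey points are IgG libraries, red points anti-EZH2 libraries, each point is 1 library and bars are the deposited FPKM intervals. In these separate tables Stat3 and Cebpd are highest at 4 h with both antibodies, Lcn2 is listed at 0 in both Sham libraries, and Vcam1 at 24 h is 3.83 FPKM with IgG and 0.320 FPKM with anti-EZH2.

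The filtered members past 2-fold with both antibodies at 4 h, Stat3 and Cebpd, were both regulators. Stat3, the transcription factor activated by IL-6 family cytokines, lies on the minus strand of chromosome 11 at chr11:100885098-100939540 (mm10). Its level was 7.00, 21.6 and 7.34 FPKM in the IgG libraries and 4.34, 11.1 and 3.16 FPKM in the anti-EZH2 libraries. Both 4 h libraries were high. The 24 h libraries were close to Sham, at 1.05-fold with IgG, where the direction turned after the scaling (log2 -0.20), and at 0.728-fold with anti-EZH2. In the table of the whole series Stat3 at 24 h was above Sham by 1.69 on the log2 scale with IgG, where it was also above 4 h by 0.11, and by 0.23 with anti-EZH2, the last 2 turning to -0.60 and -0.39 once that table was divided by its median ratios. The level at 4 h was 3.08-fold that of Sham with IgG and 2.55-fold with anti-EZH2. The deposited intervals did not overlap, at 3.02 to 11 FPKM in Sham and 11.8 to 31.4 FPKM at 4 h with IgG, and at 1.97 to 7.13 FPKM and 7.64 to 14.5 FPKM with anti-EZH2. Stat3 has 14 annotated transcripts, so the fragments behind these values cannot be given closely.

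Cebpd, a C/EBP factor induced early in the acute-phase response (chr16:15887286-15888466, plus strand), was at 1.42, 4.47 and 3.21 FPKM with IgG and at 1.97, 4.48 and 1.71 FPKM with anti-EZH2. Of its 2 annotated transcripts, of 430 and 1181 nt, the longer was taken, over which these levels correspond to about 6, 23 and 12 fragments and to about 11, 34 and 8 fragments. Both 4 h libraries were again above both Sham libraries, and the 24 h libraries fell on opposite sides of Sham. At 4 h Cebpd was 3.16-fold Sham with IgG (exact 95% interval 1.25 to 9.50 from these fragments) and 2.27-fold with anti-EZH2 (1.11 to 4.89). These intervals hold for the longer transcript only. On the shorter one Sham and 4 h have about 1.4 and 5.3 fragments with IgG and 2.6 and 8.0 with anti-EZH2, for which no interval was formed. The deposited intervals of Cebpd in Sham and at 4 h overlapped with anti-EZH2, where Sham reached 2.97 FPKM and 4 h began at 2.65 FPKM.

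Stat3 and Cebpd were the 2 of 9 filtered members past 2-fold higher at 4 h than in Sham with both antibodies, on the scale of log2(FPKM + 0.1), against 4.98% of the 8637 genes that passed the same filter. None of the 9 was lower by that rule, against 2.79% of all genes. The count rests on few genes. The median of all genes itself was 0.18 higher at 4 h than in Sham on the log2 scale with IgG and 0.34 higher with anti-EZH2, and that of the 9 members was 0.54 and 0.85 higher. Division of each library by its median ratio over 4846 genes, which differed between 4 h and Sham by 0.25 and 0.42, left log2 folds of 1.36 and 0.92 for Stat3 and 1.35 and 0.74 for Cebpd. The direction was kept with both antibodies, and 0 of the 9 members were past 2-fold in both. In the table of the whole series 0 of the 6 members that passed the filter were past 2-fold higher with both antibodies, beside 1.63% of all genes. Division of the separate tables by the median ratios changed the calls over all genes from 430 higher and 241 lower to 225 higher and 396 lower. As these are bulk samples, fewer cells of a type and less RNA per cell cannot be told apart, and the summed level of the cardiomyocyte markers was also higher at 4 h. Of these, 9 of 9 passed the filter, none was at 0 and none was past 2-fold with both antibodies, and they summed to 7086, 9671 and 8659 FPKM with IgG and to 5499, 8632 and 5774 FPKM with anti-EZH2. Myl2, the ventricular light chain and the most abundant of them, was at 3045, 3934 and 3294 FPKM and at 2122, 3181 and 2114 FPKM. All 9 markers but Ttn were above Sham at 4 h with both antibodies, before and after the scaling. Ttn, the giant sarcomere protein titin, was at 1.10-fold of Sham at 4 h with IgG, where the direction turned after the scaling (log2 -0.11), and at 0.811-fold with anti-EZH2. The part of these markers in the levels of Stat3 and Cebpd was not tested.

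Cebpb, the related factor behind many IL-6 target genes, has a single annotated transcript length, 1504 nt, so its fragments can be given more closely than those of Stat3. It was at 9.40, 9.94 and 10.1 FPKM with IgG, from about 52, 67 and 50 fragments, and at 6.06, 10.4 and 5.30 FPKM with anti-EZH2, from about 45, 106 and 33 fragments. The IgG libraries hardly differed, and only the anti-EZH2 libraries placed 4 h above the other groups. Its level at 4 h relative to Sham was 1.06-fold with IgG (0.729 to 1.56), where the direction turned after the scaling (log2 -0.17), and 1.71-fold with anti-EZH2 (1.19 to 2.47).

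Of the NF-kB members only Nfkb1 and Nfkbia passed the filter, and neither was past 2-fold in a common direction relative to Sham. Of all genes 4.98% were higher and 2.79% lower at 4 h, and 3.59% and 3.7% at 24 h. The absence of a call thus rests on few genes. Relb, Bcl3 and Tnfaip3 were under the filter and are given by their values. Nfkbia, the inhibitor IkB alpha and a direct NF-kB target, was at 3.36, 4.98 and 2.48 FPKM with IgG and at 2.04, 4.37 and 5.17 FPKM with anti-EZH2. At 4 h it was above Sham with both antibodies, at 1.48-fold and 2.14-fold, while at 24 h it was below Sham with IgG and above it with anti-EZH2. Nfkb1, the p105 precursor, was at 1.53, 1.29 and 2.10 FPKM with IgG and at 3.13, 3.23 and 0.803 FPKM with anti-EZH2. The AngII 24 h anti-EZH2 library was the lowest and stood at 0.256-fold of its Sham. At 4 h Nfkb1 was 0.840-fold Sham with IgG and 1.03-fold with anti-EZH2, the latter turning to a log2 fold of -0.36 after the scaling. Relb, the partner of the noncanonical pathway, was at 0.577, 0.571 and 1.35 FPKM with IgG and at 0.656, 0.754 and 0.313 FPKM with anti-EZH2. It was highest at 24 h with IgG and lowest at 24 h with anti-EZH2. Bcl3, an atypical IkB protein, was at 0, 2.52 and 0.159 FPKM with IgG and at 0.357, 0.203 and 0.254 FPKM with anti-EZH2, so that its high value was in 1 library. Socs3, the inhibitor that STAT3 induces, was at 0.901, 0.405 and 0 FPKM with IgG and at 0.149, 0.0533 and 0.356 FPKM with anti-EZH2. With anti-EZH2 these levels correspond to at most 1.99, 0.985 and 3.98 fragments, which cannot order the groups. Tnfaip3, the A20 inhibitor of NF-kB, was at 0, 0.796 and 0 FPKM with IgG and at 0.170, 0.0303 and 0.824 FPKM with anti-EZH2.

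Of the acute-phase and innate effector genes, Lcn2, the siderophore-binding lipocalin, was highest at 4 h with both antibodies. It was listed at 0 in Sham, at 1.87 FPKM at 4 h and at 0.419 FPKM at 24 h with IgG, and at 0, 1.76 and 0 FPKM with anti-EZH2. At 24 h it was above 0 with IgG alone, and no fold was formed against 0. Depending on the transcript, the 4 h levels correspond to 5.20 to 11.3 fragments and 7.43 to 16.2 fragments. In Sham, 3 fragments allow 0.599 and 0.450 FPKM on the longest transcript and 1.31 and 0.981 FPKM on the shortest. The mean of Lcn2 was 0.674 FPKM, under the filter. S100a8 and S100a9, the subunits of calprotectin in neutrophils and monocytes, were above 0 only in the AngII 4 h anti-EZH2 library, at 2.21 and 0.809 FPKM. About 5 and 2 fragments lie behind these values, and the AngII 4 h IgG library could have held up to 1.96 and 1.83 FPKM, or up to 2.04 and 1.87 FPKM on their shorter transcripts. Ptx3, the long pentraxin, was above 0 in the Sham IgG library alone, at 0.136 FPKM. Hp, the hemoglobin scavenger haptoglobin, was above 0 in the 4 h libraries alone, at 0.167 FPKM with IgG and 0.220 FPKM with anti-EZH2, or at most 2 fragments each.

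Neutrophil markers were low in every library. Of 9 markers none passed the filter, and Ly6g, Elane, Camp and Retnlg were listed at 0 throughout. The list summed to 0.0406, 1.2 and 0.349 FPKM with IgG and to 0.107, 0.476 and 0.615 FPKM with anti-EZH2, led by Csf3r at 0, 0.771 and 0 FPKM and at 0.0148, 0.348 and 0 FPKM. Hepatocyte markers (0 of 4 past the filter) summed to 1.11, 3.46 and 0.286 FPKM and to 0.191, 1.59 and 1.64 FPKM, with Alb, the most abundant, at 1.11, 2.17 and 0.286 FPKM and at 0.191, 1.09 and 0 FPKM. Both sums were highest at 4 h with IgG and at 24 h with anti-EZH2. The part of either cell type in the levels of Lcn2, Hp, S100a8 and S100a9 was not tested.

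At 24 h none of the 9 filtered members was past 2-fold higher than Sham with both antibodies, against 3.59% of all genes. None was lower by that rule either, against 3.7% of all genes. The median log2 fold of the 9 was 0.43 with IgG and -0.19 with anti-EZH2, beside 0.20 and -0.08 for all genes. Cebpd was 2.27-fold Sham with IgG (0.780 to 7.29) and 0.867-fold with anti-EZH2 (0.303 to 2.37), both within counting error of no change. From the IgG libraries alone, Vcam1 and Cebpd, 2 of the 9, were past 2-fold higher, beside 20.6% of all genes, and 0 were lower, beside 10.5%. Vcam1 passed the filter only through its AngII 24 h IgG value, with a mean of 0.804 FPKM over the other 5 libraries, so that its count as a filtered member here, and in the other comparisons that use this library, follows in part from the filter. The table of the whole series gave other values at this time. There 3 of the 6 members that passed the filter, Tnfrsf12a, Cebpb and Cebpd, were past 2-fold higher than Sham with both antibodies, beside 19.9% of all genes, or 6.88% once that table was divided by its median ratios. Cebpb was at 1.52, 1.5 and 12.4 FPKM with IgG and at 1.61, 1.83 and 10.7 FPKM with anti-EZH2, and Stat3 was at 2.29, 7.02 and 7.59 FPKM and at 2.51, 4.50 and 2.97 FPKM. Both 24 h libraries were then the highest for Cebpb, and the direction of Cebpb and Cebpd at 24 h with anti-EZH2 therefore depends on the table.

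**Figure D2:**
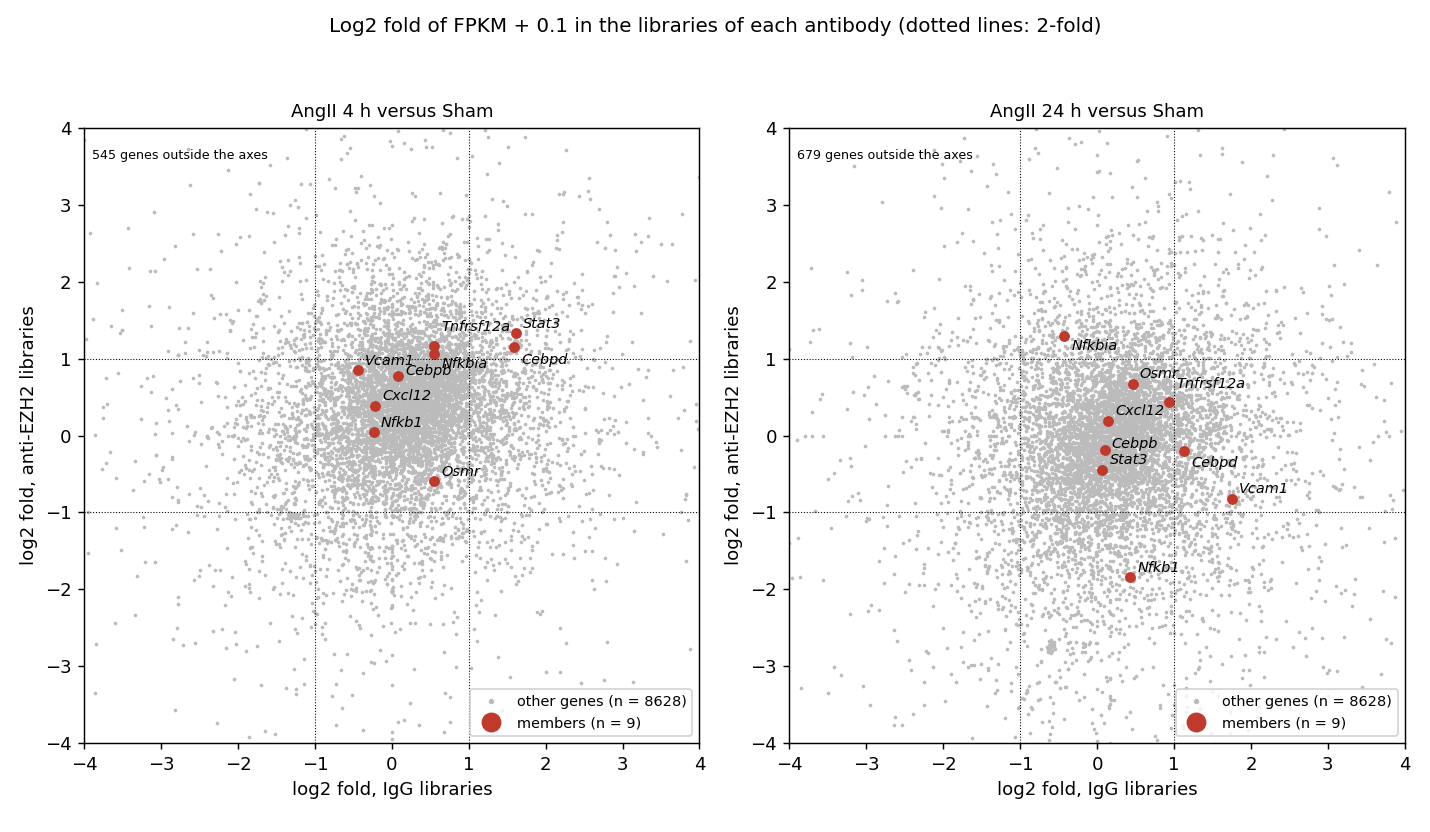
Log2 fold of FPKM + 0.1 against Sham in the IgG libraries (x axis) and in the anti-EZH2 libraries (y axis), at 4 h (left) and 24 h (right), for the 8637 genes with a mean of at least 1 FPKM; red points are the 9 members among them, grey points the other genes, and dotted lines mark 2-fold; genes beyond the axes are not drawn. Stat3 and Cebpd lie in the upper right corner at 4 h, and no member lies in a corner of common direction at 24 h.

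Between 4 h and 24 h, Stat3 was the 1 of 9 filtered members past 2-fold lower at 24 h with both antibodies, against 3.99% of all genes. Its 24 h level was 0.340-fold that of 4 h with IgG and 0.285-fold with anti-EZH2, and after the median scaling its log2 folds were -1.56 and -1.30. With IgG the direction was the opposite in the table of the whole series, at a log2 fold of 0.11. None of the 9 was higher, against 1.75% of all genes. From the IgG libraries alone Stat3 was again the 1 member lower, beside 11.6% of all genes, and Vcam1, which passed the filter only through its 24 h IgG value, the 1 member higher, beside 13.9%. Median log2 folds of the 9 were 0.02 and -0.96, beside 0.01 and -0.48 for all genes. The scaling moved the calls over all genes from 151 higher and 345 lower to 237 higher and 232 lower. These comparisons and those with Sham share libraries and are not independent of each other.

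The rule asked for more than 2-fold with both antibodies, which most genes past 2-fold higher with 1 of them did not meet. At 4 h, 1547 genes were past 2-fold higher with IgG and 1822 with anti-EZH2, and 430 were in both, 27.8% and 23.6% of the respective lists. Another 175 of the 1547 were past 2-fold lower with anti-EZH2. At 24 h the shared 310 genes were 17.4% of 1780 and 26.8% of 1155, and 436 of the 1780 went the opposite way with anti-EZH2.

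The anti-EZH2 libraries were then compared with the IgG library of the same group. In Sham none of the 9 filtered members was past 2-fold higher with anti-EZH2 than with IgG on the scale of log2(FPKM + 0.1), against 14% of all genes. Nfkb1 lay at that limit, with a plain ratio of 2.04 and a log2 ratio of 0.99. None was lower, against 18.6%. At 4 h, Nfkb1 was higher, at 2.51-fold, 1 of 9 members against 12.2% of all genes, and none was lower, against 11.8%. At 24 h, Nfkbia was higher, at 2.09-fold, 1 of 9 against 8.57% of all genes. Lower at 24 h were 4 of the 9, against 32.7% of all genes, a similar share: Tnfrsf12a, Vcam1, Stat3 and Nfkb1, at 0.459-fold, 0.0835-fold, 0.431-fold and 0.383-fold of IgG. Over all 3 groups no filtered member was past 2-fold in a common direction, where 1.26% of all genes were higher and 1.13% lower. Median log2 ratios of anti-EZH2 to IgG were -0.63, 0.00 and -0.91 for the 9 members in Sham, at 4 h and at 24 h, and -0.22, -0.07 and -0.58 for all genes. The median scaling, with log2 shifts between anti-EZH2 and IgG of -0.28, -0.12 and -0.62 in the 3 groups, left 1 of the 4 members past 2-fold lower at 24 h, Vcam1 with a log2 ratio of -2.69, a gene in the filtered set only through the IgG value of this ratio. After the scaling 1 member was past 2-fold higher in Sham, Nfkb1 (log2 1.26), and 2 were at 24 h, Nfkbia (log2 1.64) and Osmr (log2 1.43). It also changed the calls over all genes at 24 h from 740 higher and 2828 lower to 1427 higher and 1454 lower. In Sham they went from 1206 higher and 1603 lower to 1558 higher and 1092 lower, and over all 3 groups from 109 higher and 98 lower to 178 higher and 33 lower. Stat3 was below IgG in each group, at 0.620-fold, 0.513-fold and 0.431-fold, and kept that direction after scaling, whereas in the table of the whole series the direction turned in Sham, at 2.29 FPKM with IgG and 2.51 FPKM with anti-EZH2.

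Other genes of the same pathways were read by the same rule. Over 4 lists 33 of them passed the filter, of which 2 were higher and 2 lower at 4 h, beside 4.98% and 2.79% of all genes. After the median scaling 1 was higher (Mt2) and 3 were lower (Birc3, Csf1 and Tnip1), where all genes gave 225 higher and 396 lower. Of 20 other IL-6 and STAT3 pathway genes 10 passed the filter, and 1 was higher at 4 h and none lower. This was Lifr, the receptor of leukemia inhibitory factor, at 1.14, 3.08 and 3.04 FPKM with IgG and at 1.49, 3.53 and 2.19 FPKM with anti-EZH2. Both AngII times were above Sham with both antibodies, and after the scaling the log2 folds at 4 h were 1.12 and 0.79, no longer past 2-fold in both.

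Among 18 other acute-phase genes 5 passed the filter, with 1 higher at 4 h and none lower. Mt2, a metal-binding metallothionein that glucocorticoids and cytokines induce, was at 5.88, 26.4 and 4.44 FPKM with IgG and at 4.46, 26.6 and 2.96 FPKM with anti-EZH2. Its 4 h libraries were 4.48-fold and 5.95-fold above Sham, and its 24 h libraries were below Sham. These folds were larger than those of any of the 9 filtered members at 4 h. Of 27 other NF-kB pathway genes 13 passed, with none higher and 1 lower at 4 h. Birc3, an NF-kB target that inhibits apoptosis, was at 2.18, 0.546 and 1.44 FPKM with IgG and at 5.89, 2.10 and 0.154 FPKM with anti-EZH2. Of 26 other cytokines and chemokines 5 passed, with none higher and 1 lower at 4 h. Csf1, the macrophage growth factor, was at 6.25, 2.40 and 2.48 FPKM with IgG and at 6.34, 1.46 and 3.76 FPKM with anti-EZH2, below Sham in all 4 AngII libraries. No gene of these 4 lists that passed the filter was past 2-fold in a common direction at 24 h relative to Sham, beside 3.59% higher and 3.7% lower of all genes.

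Between 4 h and 24 h, 1 of the 33 was higher (Irak1) and 3 were lower (Tnfrsf1a, Tgfb1 and Mt2), beside 1.75% and 3.99% of all genes, all 4 named for this count after their values were seen. After the median scaling Irak1 was the 1 higher and Mt2 the 1 lower. With anti-EZH2 against IgG, 1 was higher and 5 were lower in Sham, beside 14% and 18.6% of all genes, and 2 were higher and 5 lower at 4 h, beside 12.2% and 11.8%. The 5 lower at 4 h were all among the 13 NF-kB pathway genes. After the scaling 3 were higher and 4 lower in Sham, where all genes gave 1558 and 1092. At 4 h 2 were then higher and 3 lower, where all genes gave 1214 and 829. At 24 h, 3 were higher and 14 lower, beside 8.57% and 32.7%, and the 14 included 7 of the 10 IL-6 and STAT3 pathway genes. Birc2 and Traf3, also among the 14, passed the filter only through their AngII 24 h IgG values, which are part of these ratios. Their count here follows in part from the filter, as does that of Traf3 after the scaling. The scaling left 7 higher and 7 lower at 24 h, with 2 of the 10 IL-6 and STAT3 pathway genes lower, beside 16.6% and 16.9% of all genes.

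Under the filter, where many levels rest on few fragments, 4 of 44 genes of these lists above 0 in any library (9.09%) were past 2-fold in a common direction against Sham at 4 h or 24 h, beside 12.6% of all 13546 such genes. The 4 are named here after their values were seen, and none is a call. Pim1, a kinase gene that STAT3 induces, was at 0.474, 1.56 and 0.860 FPKM and at 0.360, 1.59 and 0.429 FPKM, highest at 4 h with both antibodies. Serpina3n, an acute-phase protease inhibitor, was at 0.0827, 0.307 and 0.985 FPKM and at 0.0942, 0.471 and 1.68 FPKM, highest at 24 h with both. Nfkbie, the inhibitor IkB epsilon, was at 0.312, 0 and 0.118 FPKM and at 0.237, 0 and 0 FPKM, above 0 in both Sham libraries and listed at 0 in both 4 h libraries. Irak4, a kinase below the IL-1 and Toll-like receptors, was at 0.0879, 0.0724 and 0.547 FPKM and at 0, 0.143 and 0.218 FPKM, highest at 24 h with both.

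Markers of the remaining cell types give the setting of these values. Macrophage markers, 6 of 10 past the filter and none at 0 throughout, summed to 58.2, 35.2 and 38.9 FPKM with IgG and to 42.3, 29.4 and 26.3 FPKM with anti-EZH2, and the most abundant, Lyz2, was at 17.3, 12.6 and 18.3 FPKM and at 15.2, 11.1 and 10.0 FPKM. Their sum was lower in the AngII groups than in Sham, the direction of Csf1, and its part there was not tested. Fibroblast markers, 6 of 7 past the filter, summed to 74.2, 50.2 and 63.0 FPKM and to 64.9, 54.4 and 50.5 FPKM, with Dcn at 25.8, 30.2 and 28.0 FPKM and at 22.2, 25.4 and 18.9 FPKM. Col3a1 was past 2-fold lower at 4 h with both antibodies, from 20.6 to 7.37 FPKM and from 24.5 to 12.0 FPKM, and Col1a1 at 24 h, from 15.2 to 5.73 FPKM and from 8.27 to 1.82 FPKM. For Col1a1 the direction with IgG at 24 h was the opposite in the table of the whole series, but not once that table was divided by its median ratios. Blood cell genes were also seen. Erythroid markers, 5 of 5 past the filter, summed to 920, 625 and 1454 FPKM and to 724, 587 and 810 FPKM, with Hbb-bs at 288, 188 and 486 FPKM and at 222, 187 and 215 FPKM. Platelet markers, 1 of 4 past the filter, summed to 6.89, 2.22 and 6.62 FPKM and to 4.72, 3.66 and 2.81 FPKM, with Pf4 at 5.74, 2.01 and 6.62 FPKM and at 4.09, 3.36 and 2.00 FPKM.

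Lymphocyte markers, with 0 of 6 past the filter and Cd3e and Cd8a at 0 throughout, summed to 0.855, 0.303 and 0 FPKM and to 0.140, 0.0529 and 2.67 FPKM, and Cd4 alone made up the last of these. Adipocyte markers, 1 of 5 past the filter and Plin1 at 0, summed to 69.1, 70.6 and 63.3 FPKM and to 55.1, 56.8 and 38.7 FPKM, nearly all from Fabp4, which capillary endothelium also expresses, at 69.1, 70.6 and 63.3 FPKM and at 54.4, 56.8 and 38.4 FPKM. Mesothelial markers, 0 of 3 past the filter, summed to 0.177, 0.231 and 0.851 FPKM and to 0.25, 0.565 and 0.409 FPKM, led by Wt1 at 0.177, 0.132 and 0.772 FPKM and at 0.144, 0.369 and 0.283 FPKM. The RNA recovered from the ventricle was thus marked by cardiomyocyte genes, and neutrophil markers were low in it. All libraries were pull-downs, so the composition of the tissue itself was not measured.

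Promoter sequences were examined for letters that the regulators above are known to bind. RefSeq promoters (GRCm38.p6, windows of 300 bases around the gene start) were matched for 25 of the 33 genes, with 28 promoters in all, both strands searched. The STAT motif TTCNNNGAA was in 3 of the 28, those of Sele, Icam1 and Socs3, and in 8.30% of all 32851 promoters. The NF-kB motif, GGG and TTCC with any 3 bases between them, was in 8, from Il6, Cxcl1, Cxcl2, Il1r1, Il4ra, Nfkbia and both promoters of Tnfaip3, and in 5.56% of all. The C/EBP motif TTGCNNAA was in 7, those of Il6, Saa3, Lcn2, Ptx3, S100a9, Il1rl1 and Il1r1, and in 10.8% of all. The TATA motif TATAAA was in 8 of the 28 and in 13.6% of all. Cxcl1 and Cxcl2 each held 3 NF-kB matches, with 9 bases shared between matches. Shown 5′ to 3′ are Stat3 and Lcn2, which were highest at 4 h with both antibodies in the separate tables, and Nfkbia, a classical NF-kB target. Lcn2 was under the filter. Cebpd, also highest at 4 h with both antibodies, had no matched promoter. The Stat3 promoter (chr11:100939491-100939790, minus strand) held none of the 4 motifs. The Lcn2 promoter (chr2:32387690-32387989, minus strand) held 1 C/EBP motif, in capitals. The Nfkbia promoter (chr12:55492598-55492897, minus strand) held 1 NF-kB motif and 1 TATA motif, both in capitals, read on the opposite strand and sharing no bases. A match describes letters and not binding.
Stat3: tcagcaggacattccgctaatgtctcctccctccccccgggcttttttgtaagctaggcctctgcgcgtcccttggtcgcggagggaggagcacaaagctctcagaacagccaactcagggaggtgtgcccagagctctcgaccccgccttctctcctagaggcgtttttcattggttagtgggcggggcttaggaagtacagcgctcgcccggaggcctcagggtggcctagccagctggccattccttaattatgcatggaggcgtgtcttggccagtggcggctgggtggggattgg
Lcn2: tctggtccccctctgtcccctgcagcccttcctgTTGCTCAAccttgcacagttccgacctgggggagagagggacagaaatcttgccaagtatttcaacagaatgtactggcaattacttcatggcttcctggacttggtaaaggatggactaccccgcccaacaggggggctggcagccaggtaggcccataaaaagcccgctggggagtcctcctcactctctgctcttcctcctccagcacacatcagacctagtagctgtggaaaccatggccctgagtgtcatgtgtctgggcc
Nfkbia: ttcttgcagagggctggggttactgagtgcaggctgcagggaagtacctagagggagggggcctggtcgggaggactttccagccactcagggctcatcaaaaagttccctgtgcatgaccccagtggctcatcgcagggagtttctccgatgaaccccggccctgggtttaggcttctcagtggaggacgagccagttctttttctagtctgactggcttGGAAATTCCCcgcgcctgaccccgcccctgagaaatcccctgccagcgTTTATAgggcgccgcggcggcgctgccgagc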

How the data were processed

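RNA was pulled down from left ventricles with IgG or anti-EZH2 and sequenced, with 1 library for each of 3 groups and each antibody. The authors deposited FPKM values with intervals for each library in a table of its own, and a second FPKM table of the whole series. The submitters' processing notes name TopHat2 and mm10, and the program and annotation behind the FPKM are not given in the sources used here. The separate tables were the main source. A gene was tested when its mean was at least 1 FPKM over the 6 libraries, and called when log2(FPKM + 0.1) differed by more than 1 in the same direction with both antibodies, or in 1 group for anti-EZH2 against IgG. No p-value was computed. Library size was inferred from FPKM times effective length (fragments of 200 nt, SD 80) of genes with 1 annotated transcript of at least 400 nt. Among values of up to 6.5 fragments, 64.2% to 68.3% lay within 0.1 of a whole number, where evenly spread values would give 20%. The library size was chosen to make this share highest, so 20% is not its level by chance and the share is no independent check. Ratio intervals were exact 95% intervals on the inferred fragments. A listing at 0 was given the FPKM of 3 fragments as its limit.

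The members and lists were chosen with earlier results of these data known. Named genes were every member with at least 1 FPKM in any library, members at 0 throughout, tested genes of the other lists past 2-fold with both antibodies against Sham at 4 h or 24 h, and the most abundant gene of each marker list. Ttn was named in addition for its direction at 4 h, as were genes of the other lists where a count named them. Other members are given by their values or ranges. The other lists were NF-kB pathway, IL-6 and STAT3 pathway, cytokines and chemokines, acute-phase genes, and markers of cardiomyocytes, endothelium, fibroblasts, macrophages, neutrophils, lymphocytes, platelets, erythroid cells, hepatocytes, adipocytes and mesothelium. The value of 1 marker is not reported here. Alternatives were other pseudocounts, filters and folds, intervals that do not overlap, 1 antibody alone, division by the median ratio over genes at or above 1 FPKM in all libraries, and the series table. The series table with that division was added after seeing the data. Calls were tested on simulated data. Those data had little noise and planted changes larger than the cut, so they check the calculation and not the errors of such libraries. Calculations ran in Python (version 3.11.15) with pandas (version 2.3.3) and numpy (version 2.4.6), intervals came from scipy (version 1.17.1), and plots were drawn with matplotlib (version 3.10.9).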

Additional observations from a re-analysis of the deposited data

Results flagged for a closer look

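Vcam1 between 4 h and 24 h of AngII went opposite ways with the antibodies. Its log2 fold at 24 h relative to 4 h was 2.20 in the IgG libraries and -1.67 in the anti-EZH2 libraries. Vcam1 passed the low-value filter only through its 24 h IgG value, which is part of the first fold. Of the 1204 genes past 2-fold higher at 24 h than at 4 h with IgG, 409 (34%) were past 2-fold lower with anti-EZH2. The difference between the antibodies was not tested, as each value comes from a single pair of libraries.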

How the results depend on the processing

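Of 215 counts and medians recomputed under other settings, 142 were within 1.5 times the reported value and 73 were not. The cause was not tested. A percentage after a count is the share of all genes past the same rule. With a pseudocount of 1 FPKM, 1 member was higher at 4 h than in Sham (Stat3; 2.33%), and anti-EZH2 against IgG gave 0 higher at 4 h (8.2%), 0 higher at 24 h (5.46%) and 2 lower at 24 h (22%). With a pseudocount of 0.01 FPKM, 1 member was higher with anti-EZH2 in Sham (Nfkb1; 14.5%).

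With genes of at least 1 FPKM in any library (15 members), 2 were lower at 24 h than at 4 h (Stat3 and Lcn2; 5.18%). Anti-EZH2 against IgG then gave 3 higher in Sham (17.2%), 2 higher (15.3%) and 1 lower (14%) at 4 h, 7 lower at 24 h (33.4%) and a median of 0 in Sham. The 6 members added by this filter (Cxcl16, Il1rl1, Relb, Bcl3, Lcn2 and S100a8) reached 1 FPKM in 1 or 2 libraries each, so their counts follow in part from the filter. Without a filter (29 members, many of few fragments), 4 were higher (Stat3, Cebpd, Lcn2 and Hp; 5.12%) and 1 was lower (2.54%) at 4 h than in Sham, 1 was lower at 24 h than in Sham (3.79%) and 3 were lower at 24 h than at 4 h (4.59%). Anti-EZH2 against IgG gave 4 higher (18%) and 5 lower (16.3%) in Sham, 3 higher (16.2%) and 4 lower (13.7%) at 4 h, and 3 higher (12.1%) and 11 lower (26.5%) at 24 h. The medians were then 0 at 4 h against Sham with anti-EZH2 and 0 for anti-EZH2 against IgG in Sham.

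Division by the median ratio left 0 members higher at 4 h than in Sham (2.61%). Anti-EZH2 against IgG gave 1 higher in Sham (18.1%), and 2 higher (16.6%) and 1 lower (16.9%) at 24 h with a median log2 ratio of -0.30. All 132 folds of named genes over time stayed within 1.5-fold of the reported ones and 11 took the other sign. The division moves all folds of a comparison by nearly the same amount. The largest log2 shift over time was -0.49, under 1.5-fold, so the first of these counts was fixed by the shifts. Ratios of anti-EZH2 to IgG were not among the 132 folds. At 24 h those of Stat3, Tnfrsf12a and Nfkbia, for instance, moved past 1.5-fold, from log2 -1.19, -1.10 and 1.03 to -0.58, -0.49 and 1.64.

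In the series table (6 members), 0 were higher at 4 h than in Sham (1.63%), 3 were higher at 24 h than in Sham (Tnfrsf12a, Cebpb and Cebpd; 19.9%), and 2 were higher (21.4%) and 0 lower (1.23%) at 24 h than at 4 h. Anti-EZH2 against IgG gave 0 higher at 4 h (11.9%) and 1 lower at 24 h (15%). Median log2 folds were 1.74 and 1.79 at 24 h against Sham with IgG and anti-EZH2, 0.99 and 1.09 at 24 h against 4 h, and -0.15 for anti-EZH2 against IgG at 24 h. Of the 132 folds of named genes over time 71 stayed within 1.5-fold and 59 moved further. In all 26 took the other sign. Called folds that reversed were Stat3 at 24 h against 4 h with IgG (log2 0.11) and Col1a1 at 24 h against Sham with IgG (log2 0.55). The series table divided by its median ratios, chosen after seeing the data, gave the counts 0, 3, 2 and 0 over time (1.67%, 6.88%, 6.37% and 5.61%) and 0 and 1 for anti-EZH2 against IgG (10.1% and 14.9%), in the same order. Its medians were 1.14 and 1.17 at 24 h against Sham, 0.52 at 24 h against 4 h with anti-EZH2 and -0.17 for anti-EZH2 against IgG at 24 h, and 80 of 132 folds stayed within 1.5-fold while 18 took the other sign. No called fold was reversed there.

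A change of more than 4-fold left 0 higher at 4 h than in Sham (1.09%), 0 lower at 24 h than at 4 h (1.08%), and for anti-EZH2 against IgG 0 higher at 4 h (4.98%), 0 higher at 24 h (3.87%) and 1 lower at 24 h (11.2%). A change of more than 1.5-fold gave, for anti-EZH2 against IgG, 2 higher (20.4%) and 6 lower (31.6%) in Sham, 2 higher (20.5%) and 1 lower (22.4%) at 4 h, 2 higher (13.3%) and 7 lower (49.9%) at 24 h, and 1 lower in all 3 groups (Stat3; 3.92%). Where the deposited intervals also had to lie apart, 1 was higher at 4 h than in Sham (Stat3; 0.648%), 0 lower at 24 h than at 4 h (0.081%), and for anti-EZH2 against IgG 0 higher at 4 h (1.64%), 0 higher at 24 h (0.672%) and 0 lower at 24 h (6.82%). The anti-EZH2 libraries alone gave 4 higher at 4 h than in Sham (21.1%), 1 higher (13.4%) and 1 lower (22.3%) at 24 h than in Sham, and 1 higher (8.01%) and 4 lower (27.8%) at 24 h than at 4 h. The IgG libraries alone gave 2 higher at 24 h than in Sham (20.6%) and 1 higher at 24 h than at 4 h (13.9%), both counts including Vcam1, which passed the filter only through its 24 h IgG value.

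With 1 library per group, leaving out a library was not possible and the spread between animals is unknown. Many levels under about 1 FPKM rest on few fragments, and most cytokines and chemokines were not ordered between groups. The tables differ in level, the median ratio of series to separate values lying between 0.321 and 0.869 over the libraries, and 430 genes at or above 1 FPKM in all separate tables were listed at 0 throughout the series table.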
